A study of Mus musculus with 10 samples.

Results

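Polycomb repressive complexes silence developmental genes through histone marks. PRC2 places methyl groups on lysine 27 of histone H3 (H3K27) through a catalytic subunit, EZH2 or EZH1, held in a core with EED and SUZ12, while PRC1 ubiquitinates histone H2A through RING1 or RNF2 (RING1B). EZH2 is the form typical of dividing cells and EZH1 that of postmitotic cells, and demethylases such as KDM6B remove the mark again, and the marks they set are known to change as progenitors of the embryonic spinal cord become neurons.

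The genes described were 10 named members of this machinery, taken by symbol from the 54146 genes of the count table. They were the PRC2 catalytic subunits *Ezh1* and *Ezh2*, the core subunits *Eed* and *Suz12*, the PRC2 cofactor *Jarid2*, the H3K27 demethylase *Kdm6b*, the PRC1 recruiter *Kdm2b*, the E3 ligases *Rnf2* and *Ring1*, and the PRC1 subunit *Bmi1*. In mm10, *Ezh2* lies at chr6:47530139-47595341, *Eed* at chr7:89954654-89980983, *Suz12* at chr11:79993106-80034123 and *Ezh1* at chr11:101191115-101226463. *Jarid2* lies at chr13:44729474-44921643, *Kdm6b* at chr11:69398508-69413675, *Kdm2b* at chr5:122870665-122989823, *Rnf2* at chr1:151458004-151500955, *Bmi1* at chr2:18677018-18686629 and *Ring1* at chr17:34020792-34024680. All 10 were among the 18901 genes that passed the expression filter, with between 751 and 17122 reads per gene and embryo. RNA had been sequenced from the lumbar spinal cord of 10 mouse embryos at E12.5, with the dorsal root ganglia left on. Conditional mutants (*Dot1l*-cKO, n = 5) were Wnt1cre2/+; Dot1l fl/fl and lacked functional DOT1L, the H3K79 methyltransferase, where the cre had acted. Controls (n = 5) were +/+ at the transgene and carried floxed *Dot1l*, with 2 floxed alleles (fl/fl) in litter 1 and 1 (fl/+) in litter 2. The transgene came from the B6.Cg-E2f1Tg(Wnt1-cre)2Sor/J line and acts mostly in the dorsal cord, so that every sample of both genotypes also held cells outside its reach. Every *Dot1l*-cKO embryo and no control carried the transgene, so its presence cannot be told apart from loss of DOT1L. Litter 1 gave 3 controls and 3 *Dot1l*-cKO embryos, and litter 2 gave 2 and 2. The question was whether these genes differed between genotypes within a litter, and whether *Ezh2* and *Ezh1* behaved differently.

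Total counts per embryo ranged from 40949585 to 61194291 in controls and from 54870771 to 68928443 in *Dot1l*-cKO. *Dot1l* itself stood at 87.6 to 107 CPM (reads scaled to the size of each library after TMM) in controls and at 97.8 to 112 CPM in *Dot1l*-cKO, and since counts over the whole gene do not measure loss of the floxed part, they do not check the genotype and embryos are named by their label. *E2f1*, which the name of the transgenic line carries, stood at 21.6 to 23.8 CPM in controls and 14.2 to 19.4 CPM in *Dot1l*-cKO of litter 1. In litter 2 it stood at 42.0 to 46.9 CPM and 36.5 to 38.8 CPM. Over both litters *E2f1* was called lower (log2 difference -0.32, SE 0.08, edgeR adjusted p = 0.0492), and its part in the results was not tested. The lumbar *Hox10* and *Hox11* genes summed to at least 433 CPM in every embryo, while all 3 forebrain and midbrain markers lay under 1 CPM everywhere. The libraries of litter 2 differed in sex-linked genes. Both *Dot1l*-cKO embryos of litter 2 had 6.00 and 6.79 CPM of *Xist* and 41.5 to 46.7 CPM of the Y-linked *Ddx3y*, whereas the other 8 embryos had at least 499 CPM of *Xist* and at most 0.243 CPM of *Ddx3y*. In litter 2, genotype and this difference therefore cannot be told apart.

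The promoters of the PRC2 core genes and of *Bmi1* are shown for their matches to motifs that regulators of the cell cycle and of growth are known to bind. RefSeq windows from 250 bases before to 50 after a gene's start (GRCm38.p6) were searched on both strands for the E2F motif (TTGGCGC or TTCGCGC), the cell-cycle homology region (CHR, TTTGAA, read as TTCAAA on the other strand) and the E-box CACGTG. Windows were found for 9 of the 10 members. *Ezh2* held an E2F match 4 bases after its start, *Eed* held a pair of CHR matches, *Suz12* held 1 CHR match and *Bmi1* held 1 E-box. In GENCODE annotation the *Ezh2* stretch lies in an exon and 5′ UTR of annotated *Ezh2* transcripts, the *Eed* stretch lies upstream of *Eed* in an exon of the opposite-strand transcript *E230029C05Rik*, and those of *Suz12* and *Bmi1* lie in no annotated gene. In the stretches that follow, all from GRCm38.p6 and written in the direction of the gene, the matches are in capitals.
Ezh2, chr6:47595009-47595038, minus strand: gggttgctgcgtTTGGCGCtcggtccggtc
Eed, chr7:89981149-89981178, minus strand: tagatTTTGAAtctctcccTTCAAAaaaag
Suz12, chr11:79992891-79992920, plus strand: ccgcgaattcagTTCAAAgaggcgtccggg
Bmi1, chr2:18676791-18676820, plus strand: gaatgaggggagCACGTGacccggcggggg

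Of 32851 windows over all genes, 3.89% held the E2F motif, 17.9% the CHR and 7.15% the E-box, against 1, 2 and 1 of the 9 members with a window. The Ezh1 window held none of the 3 motifs. Its 250 bases upstream of the start are shown as the counterpart of *Ezh2*.
Ezh1, chr11:101226464-101226713, minus strand: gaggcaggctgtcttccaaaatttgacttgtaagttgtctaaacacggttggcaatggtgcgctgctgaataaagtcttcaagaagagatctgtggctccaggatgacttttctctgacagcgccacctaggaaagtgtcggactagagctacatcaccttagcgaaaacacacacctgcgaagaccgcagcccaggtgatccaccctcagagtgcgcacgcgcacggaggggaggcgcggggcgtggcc

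Per kilobase of exon, *Rnf2* and *Bmi1* of PRC1 were the most abundant members in controls and *Ezh1* the least. *Rnf2* stood at 39.2 ± 5.93 CPM per kb (SD, n = 5 here and in the next sentences) and *Bmi1* at 33.7 ± 2.76. *Jarid2* followed with 27.1 ± 3.48 CPM per kb, *Ezh2* with 25.5 ± 6.79, *Kdm6b* with 21.3 ± 2.00 and *Suz12* with 19.97 ± 2.90. The low group was *Kdm2b* with 9.50 ± 0.672 CPM per kb, *Eed* with 8.38 ± 1.28, *Ring1* with 8.07 ± 0.619 and *Ezh1* with 3.21 ± 0.420. Neighbours in this order differed by less than the larger of their SDs, except *Bmi1* from *Jarid2*, *Suz12* from *Kdm2b* and *Ring1* from *Ezh1*. In *Dot1l*-cKO the extremes were again *Rnf2* with 39.0 ± 2.78 and *Ezh1* with 3.11 ± 0.613 CPM per kb. The spread of the controls held the litter difference described further on.

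Of the PRC2 core, *Ezh2* and *Suz12* were called lower in *Dot1l*-cKO, and *Eed* missed the threshold. *Ezh2* stood at 134, 138 and 142 CPM in the controls of litter 1 and at 111, 124 and 133 CPM in its *Dot1l*-cKO littermates. In litter 2 it stood at 208 and 231 CPM in controls and at 164 and 180.6 CPM in *Dot1l*-cKO. Every *Dot1l*-cKO embryo lay below every control of its own litter, but the mutants of litter 2 lay above the controls of litter 1. Over both litters *Ezh2* fell by 0.24 on the log2 scale (SE 0.06, edgeR adjusted p = 0.0457), to 0.847 of the control level.

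*Suz12*, which holds the PRC2 core together, stood at 85.1, 89.9 and 90.5 CPM in the controls of litter 1 and at 76.6, 76.9 and 81.7 CPM in *Dot1l*-cKO. Litter 2 had 112 and 117 CPM in controls and 92.9 and 98.1 CPM in *Dot1l*-cKO. The genotypes again did not overlap within either litter. *Suz12* fell by 0.21 on the log2 scale (SE 0.04, edgeR adjusted p = 0.0288).

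*Eed*, the subunit that reads the H3K27 mark, was at 28.03, 28.2 and 30.02 CPM in the litter 1 controls, with 23.1, 24.7 and 26.5 CPM in their *Dot1l*-cKO littermates. In litter 2 the controls had 34.7 and 39.4 CPM and the *Dot1l*-cKO embryos 30.2 and 32.3 CPM. As for *Ezh2* and *Suz12*, no mutant reached a control of its litter. The log2 difference of -0.23 (SE 0.06) stayed just outside the threshold, with an edgeR adjusted p of 0.0505, and DESeq2 gave 0.0102.

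Thus 2 of the 10 members were called lower and 0 higher at an adjusted p of 0.05, while 1.2% of all tested genes were called lower and 1.99% higher. In this comparison 5 members had an unadjusted p below 0.05, as had 22.2% of all tested genes. DESeq2 called 4, adding *Eed* and *Ring1*, beside 4.28% of 35244 genes. That share is over every gene with any read, so it is not on the footing of the edgeR shares over 18901 filtered genes. *Ezh2*, *Eed* and *Suz12* were the 3 members with *Dot1l*-cKO below control without overlap in either litter, which 4.21% of all tested genes showed. None lay above control in both litters, a pattern of 3.89% of tested genes. The median log2 difference of the members was -0.06, beside -0.01 over all tested genes. The *Ezh2* call was kept in 1 of 10 fits with an embryo removed, that without Mut_181-7 (edgeR adjusted p = 0.00909), and in the other 9 its adjusted p was 0.0522 to 0.135. It was also lost with scaling by library size only (edgeR adjusted p = 0.0540), with a GC correction (0.0553) and without the litter in the model (0.668), and the *Suz12* call was lost without the litter (0.534). The *Suz12* call was kept in 4 of 10, being lost without the mutants Mut_181-2 or Mut_190-6 or without the controls Ctr_181-4, Ctr_181-9, Ctr_190-5 or Ctr_190-7. With *Xist* as a covariate, the log2 differences were -0.16 for *Ezh2*, -0.17 for *Suz12* and -0.21 for *Eed*, with edgeR adjusted p of 0.365, 0.206 and 0.248. *Xist* was low only in both *Dot1l*-cKO embryos of litter 2, so this covariate nearly takes litter 2 out of the genotype difference. These values match those of litter 1 alone (-0.16, -0.17 and -0.21), and the same limit holds wherever *Xist* is a covariate below.

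**Figure D1:**
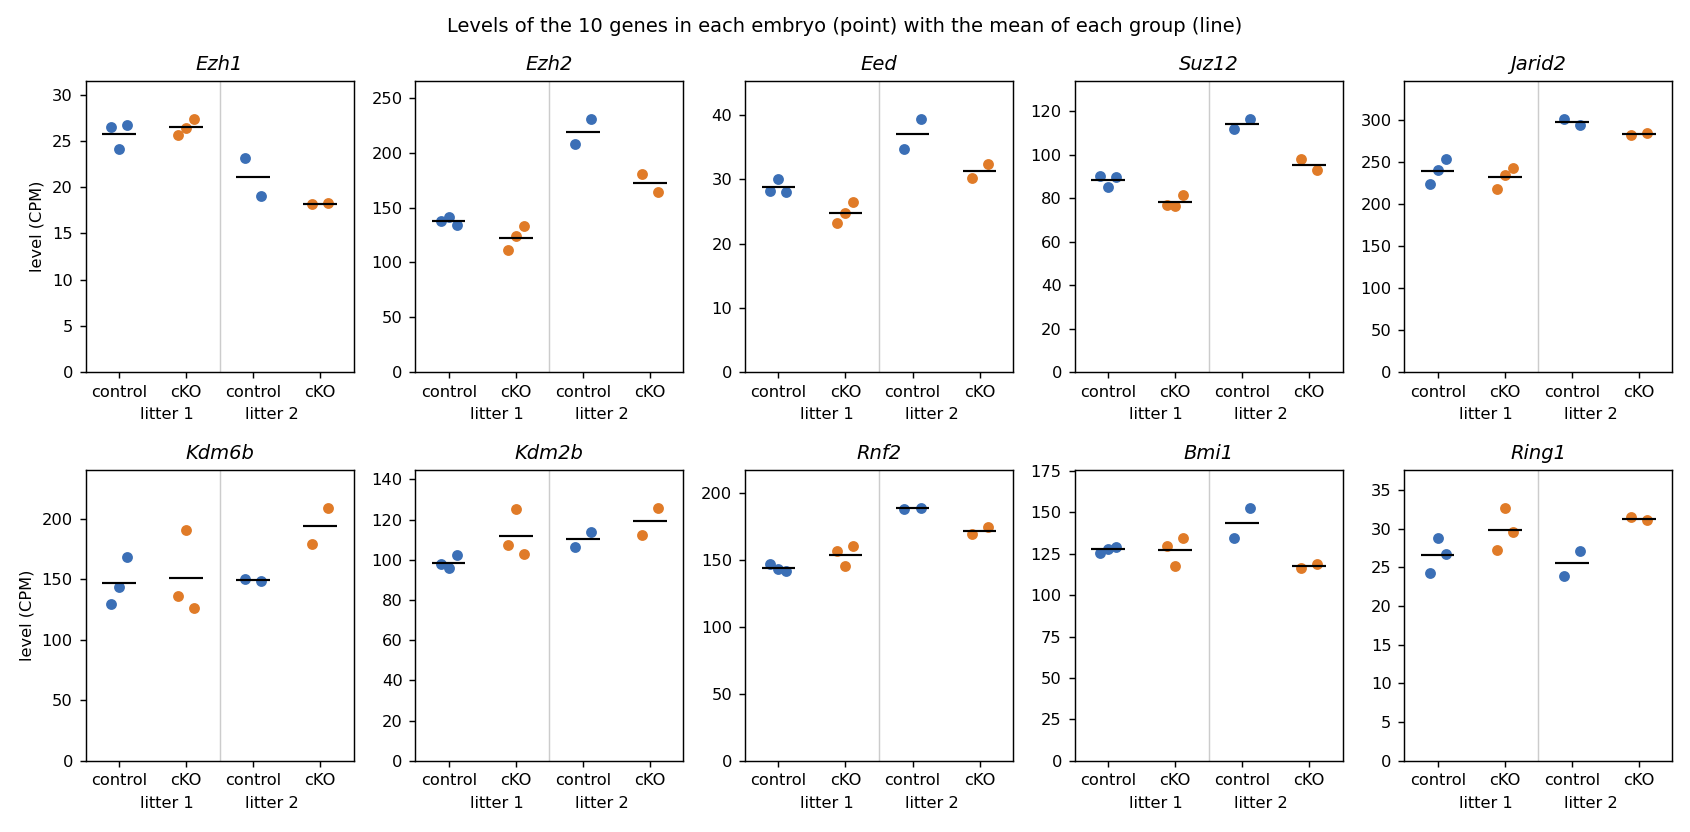
Level of each of the 10 genes in CPM (y axis, from 0) in each embryo, by litter and genotype. Points are embryos, controls in blue and *Dot1l*-cKO in orange, and lines are group means. *Ezh2*, *Eed* and *Suz12* are lower in *Dot1l*-cKO than in control within both litters, and higher in litter 2 than in litter 1.

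The other 7 members had no call over both litters. *Ezh1* stood at 24.2, 26.5 and 26.7 CPM in the controls of litter 1 and at 25.6, 26.4 and 27.4 CPM in *Dot1l*-cKO. In litter 2 it had 19.0 and 23.2 CPM in controls and 18.2 and 18.3 CPM in *Dot1l*-cKO. The genotypes overlapped in litter 1 and differed by 0.04 on the log2 scale there, whereas in litter 2 the difference was -0.21, and over both litters it was -0.06 (SE 0.07, edgeR adjusted p = 0.661). *Jarid2*, which aids PRC2 in finding its targets, spanned 217 to 254 CPM in litter 1 and 283 to 301 CPM in litter 2, with a log2 difference between genotypes of -0.06 (SE 0.05).

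The demethylase *Kdm6b* was the most variable member, with a coefficient of biological variation of 12.4% against 5.32% to 8.30% for the others. Controls of litter 1 had 129, 143 and 168 CPM and *Dot1l*-cKO embryos 126, 136 and 191 CPM, an overlap in both directions. In litter 2 controls had 148 and 150 CPM and *Dot1l*-cKO embryos 179 and 209 CPM. The log2 difference over both litters was 0.18 (SE 0.11, edgeR adjusted p = 0.374), and it was 0.02 after a correction for GC content and 0.04 with *Xist* as a covariate.

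Among the PRC1 genes, *Ring1* stood at 24.3, 26.8 and 28.7 CPM in the controls of litter 1 and at 27.3, 29.6 and 32.7 CPM in *Dot1l*-cKO. In litter 2 the controls had 23.9 and 27.1 CPM and the *Dot1l*-cKO embryos 31.1 and 31.5 CPM, without overlap. Its log2 difference was 0.22 (SE 0.07), with adjusted p of 0.0856 in edgeR and 0.0382 in DESeq2. *Rnf2*, the paralogue of *Ring1*, differed by 0.00 (SE 0.05) over both litters, since *Dot1l*-cKO embryos had 145 to 160 CPM beside 142 to 147 CPM in litter 1 controls, but 169 to 175 CPM against 188 to 189 CPM in litter 2. *Kdm2b*, which brings a variant PRC1 to CpG islands, had a log2 difference of 0.15 (SE 0.06, edgeR adjusted p = 0.138), with 95.8 to 102 CPM in controls and 103 to 125 CPM in *Dot1l*-cKO of litter 1, while in litter 2 the controls (107 and 114 CPM) and *Dot1l*-cKO embryos (112 and 126 CPM) overlapped. Exons of *Kdm2b* overlap those of *Rnf34* over 627 bases (5.77% of its exon length) and those of *Rnf2* overlap *Trmt1l* over 158 bases (3.83%), each on the opposite strand. Noncoding opposite-strand exons overlap *Eed* over 261 bases (6.82%), *Kdm6b* over 286 (4.11%), *Suz12* over 178 (3.60%) and *Ezh2* over 174 (2.61%). The library kit does not mark strand, so reads in these stretches cannot be told apart.

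Within litters the picture was uneven. In litter 1 alone (3 against 3) edgeR called 0 of the 10 members, 4 had an unadjusted p below 0.05 (14.1% of all tested genes), DESeq2 called 0 as well, and 0.0623% of all tested genes were called. The log2 differences there were -0.16 for *Ezh2* (edgeR adjusted p = 0.334), -0.17 for *Suz12* (0.216) and -0.21 for *Eed* (0.256). In litter 2 alone (2 against 2) edgeR called *Ezh2*, *Suz12* and *Bmi1* lower and *Kdm6b* higher, where 1.16% of tested genes were called lower and 3.98% higher. *Ezh2* fell by 0.34 (SE 0.07, adjusted p = 0.0207), *Suz12* by 0.25 (SE 0.06, 0.0456) and *Bmi1* by 0.28 (SE 0.07, 0.0411), and *Kdm6b* rose by 0.39 (SE 0.07, 0.0117), all on the log2 scale by edgeR. *Bmi1*, a PRC1 subunit known for keeping stem cells dividing, had 134 and 153 CPM in the controls of litter 2 and 116 and 119 CPM in *Dot1l*-cKO, but 126 to 129 CPM and 117 to 134 CPM in litter 1. Without Mut_190-6, 0 members were called in litter 2. Without control Ctr_190-7 the calls were *Kdm6b* and *Ring1*, without Mut_190-4 they were *Ezh2* and *Kdm6b*, and without control Ctr_190-5 the *Suz12* call was lost. The *Suz12* call in litter 2 was also lost with DESeq2 size factors, with library size only, without the filter on low counts and with at least 10 counts in every embryo, and the *Bmi1* call with DESeq2 size factors.

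The difference between litters was itself tested as an interaction of litter and genotype. None of the 10 members was called, beside 0.0106% of all tested genes, 2 had an unadjusted p below 0.05 (8.43% of all tested genes), and DESeq2 called 0. The 2 were *Bmi1* (log2 interaction -0.28, SE 0.10) and *Rnf2* (-0.23, SE 0.08), both with an edgeR adjusted p of 0.502. The value for *Kdm6b* was 0.34 (SE 0.21, edgeR adjusted p = 0.666). Both mutants of litter 2 were those with little *Xist*, and markers of dorsal root ganglion neurons moved with genotype in that litter, where 5 of 7 were called higher in *Dot1l*-cKO and the list summed to 381 CPM in both controls against 471 to 532 CPM in *Dot1l*-cKO. Of all tested genes, 3.98% were called higher and 1.16% lower in litter 2 alone. Markers of other lists were also called in litter 2. These were 2 of 5 erythroid markers (*Hba-a1* by 1.47 and *Hbb-bt* by 0.49 on the log2 scale), 1 of 6 mesenchyme markers (*Col1a1*, 0.71), 1 of 5 endothelium markers (*Cldn5*, 0.61) and 1 of 7 neural progenitor markers (*Hes5*, 0.37) called higher, and 4 of 10 proliferating-cell markers and 1 of 5 lumbar *Hox* genes (*Hoxc11*, -0.36) called lower. The median log2 differences there were 0.40 for the erythroid list (5 of 5 positive), 0.20 for mesenchyme, -0.27 for proliferating cells (10 of 10 negative), -0.03 for neural progenitors and 0.01 for endothelium. In litter 2 the erythroid list summed to 1027 to 1115 CPM in controls and 1241 to 1547 CPM in *Dot1l*-cKO, and the mesenchyme list to 1023 to 1195 CPM and 1247 to 1416 CPM, both without overlap. In litter 1 the ganglion list summed to 877 to 933 CPM in controls and 650 to 838 CPM in *Dot1l*-cKO. The part of these cell types in the results was not tested.

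**Figure D2:**
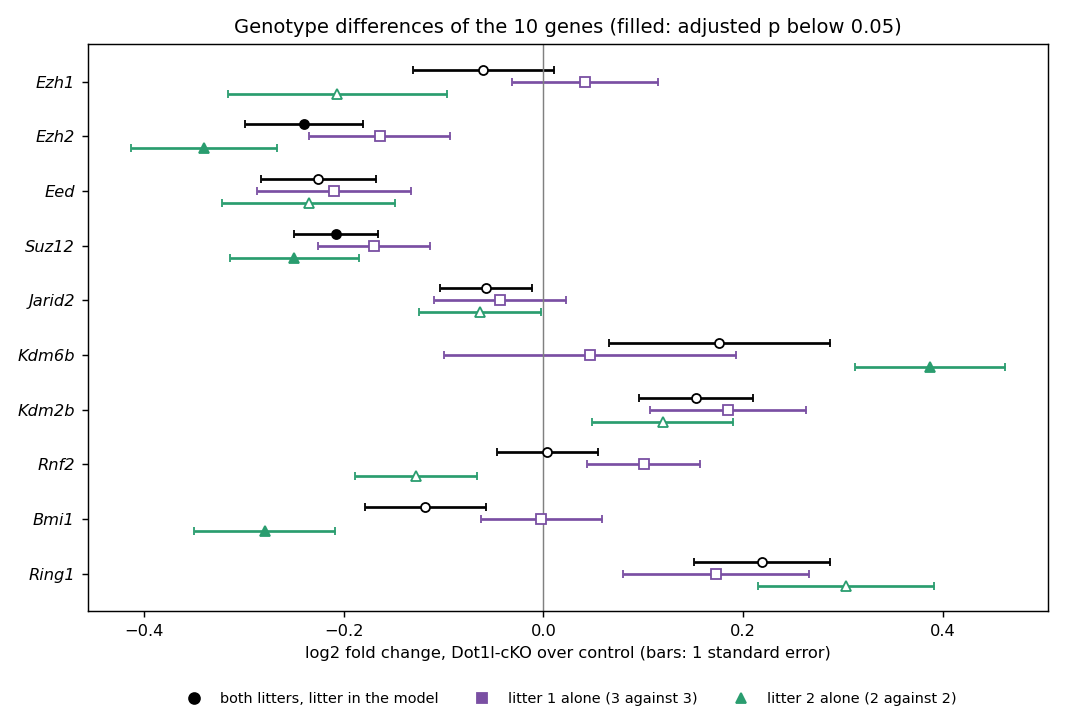
Log2 fold change of *Dot1l*-cKO over control (x axis) for each of the 10 genes (rows), for both litters together (black circles), litter 1 (purple squares) and litter 2 (green triangles), with bars of 1 standard error. Filled symbols have an edgeR adjusted p below 0.05, which are *Ezh2* and *Suz12* in both litters together and *Ezh2*, *Suz12*, *Bmi1* and *Kdm6b* in litter 2.

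More members were called between the litters than between the genotypes. From litter 1 to litter 2, *Ezh2* rose by 0.58 on the log2 scale (SE 0.06, edgeR adjusted p = 7.68e-06) and *Ezh1* fell by 0.41 (SE 0.07, edgeR adjusted p = 0.000578). *Eed* rose by 0.35 (SE 0.06), *Suz12* by 0.33 (SE 0.04), *Jarid2* by 0.30 (SE 0.05) and *Rnf2* by 0.27 (SE 0.05), with edgeR adjusted p between 5.37e-05 and 0.000846. In all, 5 of 10 members were higher and 1 lower in litter 2, against 17.6% and 18.7% of all tested genes. These 6 were called in all 10 fits with an embryo removed. *Kdm6b* (0.20), *Kdm2b* (0.13), *Bmi1* (0.03) and *Ring1* (0.00) were not called. The median over the members was 0.23, beside -0.01 over all tested genes. Among the 5 controls alone, the call of *Ezh1* was lost, with a log2 difference of -0.28 (edgeR adjusted p = 0.0589). Controls of the litters also differed in their number of floxed alleles, which cannot be told apart from the litter in controls.

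Markers of dividing cells moved with both contrasts. All 10 genes of the proliferating-cell list were higher in litter 2, with a median log2 difference of 1.11. Between genotypes over both litters all 10 had negative values, 2 of them called lower (*Mki67* and *Pcna*, with log2 differences of -0.49 and -0.19), and the median was -0.28. The list summed to 820 to 909 CPM in controls and 535 to 788 CPM in *Dot1l*-cKO of litter 1, and to 1764 to 1818 CPM and 1397 to 1536 CPM in litter 2. Of 7 neural progenitor markers, 0 were called between genotypes, while in litter 2 against litter 1, 6 were higher and 1, *Fabp7*, was lower (log2 difference -0.16). Of 12 neuron markers, 1 was called lower between genotypes (median 0.02), and in litter 2 against litter 1, 6 were called lower. Of all tested genes, 17.6% were called higher and 18.7% lower in litter 2 against litter 1. Between genotypes the shares were 1.99% and 1.2%. In bulk RNA, fewer cells of a type and less RNA per cell cannot be told apart.

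*Ezh2* and *Ezh1* were therefore also set against each other within each embryo, as the log2 ratio of their counts. The *Ezh1* to *Ezh2* ratio was -2.55, -2.38 and -2.33 in the controls of litter 1 and -2.28, -2.23 and -2.11 in *Dot1l*-cKO, without overlap. In litter 2 it was -3.60 and -3.16 in controls and -3.31 and -3.16 in *Dot1l*-cKO, with the mutants inside the range of the controls. Mean ratios correspond to 0.187 *Ezh1* reads per *Ezh2* read in controls and 0.216 in *Dot1l*-cKO of litter 1, and to 0.0958 and 0.106 in litter 2. The difference between genotypes was 0.18 (two-sided exact permutation test within litters, p = 0.117, adjusted p = 0.233 over the 4 ratios tested, smallest possible p = 0.0167). Without control Ctr_190-5 it was 0.26, with the smallest p the exact permutation test allowed, 0.0167, and an adjusted p of 0.0667, and without control Ctr_190-7 it was 0.12 (exact permutation p = 0.25). In this design 1 ratio alone cannot reach an adjusted p below 0.0667. The exact permutation p of 0.117 also lay above the smallest possible p, so this limit is not the only reason for the lack of a call. The test does not show whether *Ezh1* and *Ezh2* respond alike.

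The ratio of *Ezh2* to the summed proliferating-cell list was -2.76 to -2.58 in controls and -2.67 to -2.27 in *Dot1l*-cKO of litter 1, and in litter 2 it was -3.09 to -2.98 in controls and -3.09 in both *Dot1l*-cKO embryos. The genotypes overlapped in litter 1, and in litter 2 both *Dot1l*-cKO embryos lay below both controls, the nearer control also rounding to -3.09. Over both litters the difference was 0.10 (exact permutation p = 0.383, adjusted p = 0.511). It was 0.20 in litter 1 and -0.06 in litter 2 alone, 0.04 without Mut_181-2 and 0.15 without Mut_181-3. *Ezh1* against the neuron list differed by -0.04 (exact permutation p = 0.667, adjusted p = 0.667), with values of 0.05 in litter 1 and -0.18 in litter 2. *Ring1* against *Rnf2* differed by 0.22 (exact permutation p = 0.117, adjusted p = 0.233), from -2.60 to -2.32 in controls against -2.52 to -2.15 in *Dot1l*-cKO in litter 1, and from -2.97 to -2.80 against -2.49 to -2.42 in litter 2. The difference of the latter was 0.07 in litter 1 alone (exact permutation p = 0.7) and 0.43 in litter 2 alone, where the smallest p that 2 against 2 allows is 0.333.

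**Figure D3:**
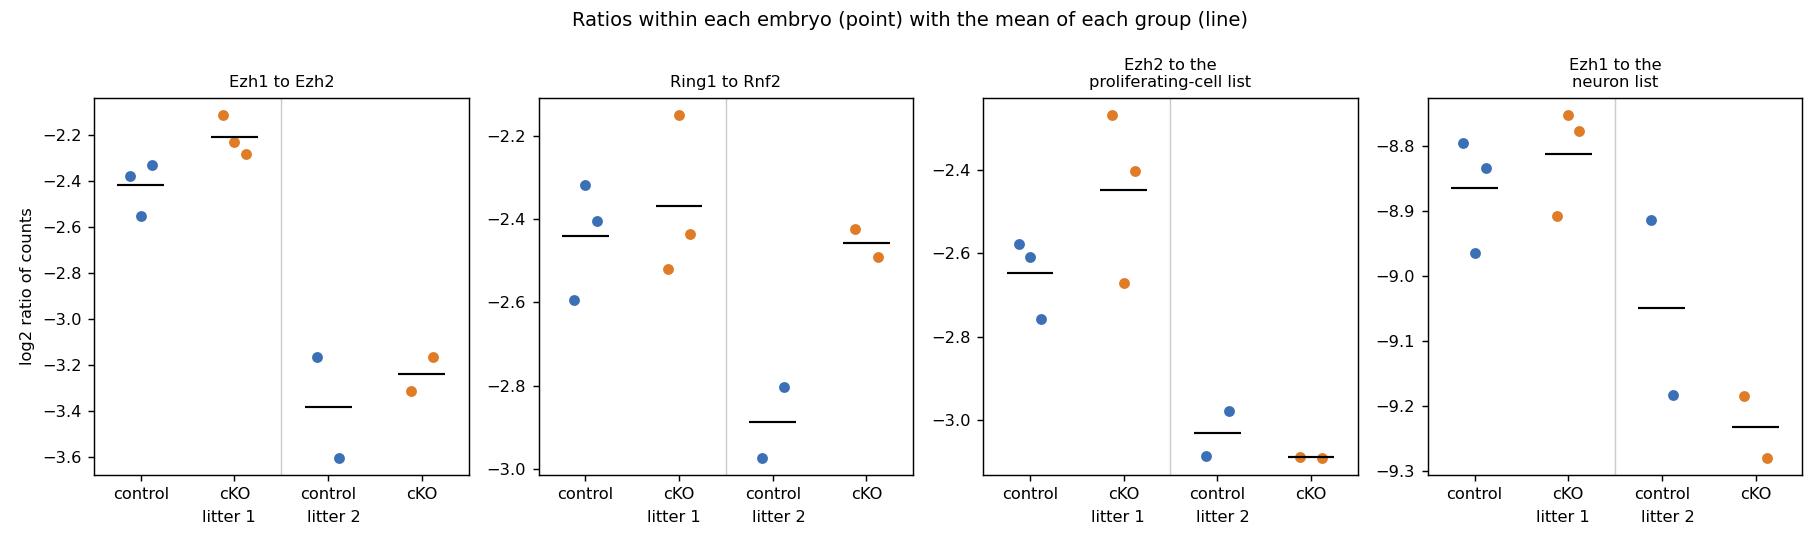
Log2 ratio of counts within each embryo (y axis, scaled to each panel) by litter and genotype, for *Ezh1* to *Ezh2*, *Ring1* to *Rnf2*, *Ezh2* to the proliferating-cell list and *Ezh1* to the neuron list. Points are embryos, controls in blue and *Dot1l*-cKO in orange, and lines are group means. *Ezh1* to *Ezh2* lies between -2.55 and -2.11 in litter 1 and between -3.60 and -3.16 in litter 2.

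The genes most like *Ezh2* over the 10 embryos, by the Pearson correlation of log2 CPM centred on the litter mean, were *Ints7* (r = 0.989), *Pa2g4* (0.985), *Crnkl1* (0.979), *Focad* (0.978) and *Gjc1* (0.978). For *Ezh1* they were *Map4k3* (0.979), *Gm35339* (0.947), *Ero1lb* (0.936), *Zfp870* (0.904) and *2610507I01Rik* (0.903). On the same measure *Ezh2* had r = 0.901 with *Suz12*, 0.892 with *Eed* and 0.295 with *Ezh1*. These coefficients are descriptions over 10 embryos of both genotypes, so that genes which differ between the genotypes share that difference.

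The remaining Polycomb genes of fixed lists mostly had no call between genotypes over both litters. Of 9 PRC2 accessory subunits, 0 were called and the median log2 difference was -0.05. The largest values among them were 0.13 (SE 0.10) for *Epop*, an adaptor of PRC2 to elongin, which was -0.24 with the GC correction, and -0.12 (SE 0.04) for *Mtf2*, a Polycomb-like subunit. Of 23 other PRC1 subunits, 1 was called higher and 0 lower, with a median of 0.02. *Fbrsl1* had the largest value of the list, 0.34 (SE 0.13), with 49.0 to 65.1 CPM in controls and 51.5 to 89.5 CPM in *Dot1l*-cKO, and an edgeR adjusted p of 0.143. Its value was 0.15 with the GC correction and 0.15 with *Xist* as a covariate. In litter 2 alone 5 of the 23 were called higher, *Fbrsl1* among them, beside 3.98% of all tested genes, while 12 of the 23 had negative values and the median was -0.01.

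Of 7 erasers of Polycomb marks, 0 were called over both litters, with a median of -0.10. *Mysm1*, an H2A deubiquitinase, had -0.14 (SE 0.05). The X-linked H3K27 demethylase *Kdm6a*, the paralogue of *Kdm6b*, had -0.25 (SE 0.10, edgeR adjusted p = 0.147). Both *Dot1l*-cKO embryos of litter 2 had 52.7 to 57.5 CPM of it, below the 68.2 to 86.4 CPM of the other 8 embryos. *Kdm6a* was called lower in litter 2 alone, where it fell by 0.61 on the log2 scale (SE 0.07, edgeR adjusted p = 0.000708), and with *Xist* as a covariate over both litters its value was 0.03. From litter 1 to litter 2, 5 of the 9 accessory subunits were higher and 1 lower, 4 of the 23 PRC1 subunits were higher and 3 lower, and 2 of the 7 erasers were higher, beside 17.6% higher and 18.7% lower over all tested genes.

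Genes that Polycomb usually keeps silent in neural tissue were low in both genotypes. Of 12 such targets, including *Cdkn2a*, *Gata4* and *Cdx2*, 11 lay under 1 CPM in every embryo, *Nkx2-5* had no read, and 4 could be tested, with 0 called. In litter 2 alone 5 could be tested, all with positive values and 0 called, and their median log2 difference was 0.73, beside -0.01 over all tested genes. The filter keeps a low gene that passes in a single genotype, so that this median supports no difference. *Sox17* was the exception, at 3.65 ± 1.09 CPM in controls and 3.99 ± 0.938 CPM in *Dot1l*-cKO (SD, n = 5 each), and had a log2 difference of 0.16 (SE 0.17). The 12 targets summed to 5.69 to 6.36 CPM in controls and 4.88 to 7.86 CPM in *Dot1l*-cKO of litter 1, and to 3.51 to 4.28 CPM and 6.47 to 6.58 CPM in litter 2. *Sox17* is also made by endothelium, whose 5 markers had 0 calls over both litters, with 4 of 5 negative and a median log2 difference of -0.24. In litter 1 the median was -0.39 and the list summed to 263 to 308 CPM in controls and 214 to 237 CPM in *Dot1l*-cKO, without overlap. In litter 2 alone *Sox17* had a log2 difference of 0.63 (SE 0.20, edgeR adjusted p = 0.0912), the endothelium marker *Cldn5* was called higher (0.61, SE 0.11, edgeR adjusted p = 0.00743) while the other 4 endothelium markers lay between -0.04 and 0.06, and the endothelium list summed to 174 to 219 CPM in controls and 184 to 232 CPM in *Dot1l*-cKO of litter 2.

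Other cell types showed no call between genotypes over both litters, with 0 of 7 dorsal root ganglion, 0 of 6 mesenchyme, 0 of 5 erythroid and 0 of 4 microglia and macrophage markers. Of the 5 lumbar *Hox* genes, 1, *Hoxc11*, was called lower, by a log2 difference of -0.47, beside 1.2% of all tested genes. *Hoxd11* had -0.55 (edgeR adjusted p = 0.0539), while *Hoxa10*, *Hoxc10* and *Hoxd10* each had -0.06. In litters 1 and 2 alone, *Hoxc11* had -0.54 and -0.36, and *Hoxd11* -0.60 and -0.46. The cause was not tested.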

How the data were processed

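RNA of 10 embryos was sequenced with a polyA kit that does not mark strand. Raw gene-level read counts were deposited, which the authors made in the snakePipes workflow by trimming, STAR alignment to mm10 and featureCounts on GENCODE annotation. The strand setting of counting is not given in the sources used here. Gene names and coordinates are those of GENCODE for GRCm38 (54079 of 54146 identifiers matched without version, all 10 members exactly).

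The counts were tested in R 4.3.3 with edgeR 4.0.16 (quasi-likelihood test, TMM, filterByExpr by group, litter in the model, Benjamini-Hochberg at 0.05 over all tested genes), for both litters, each litter alone, litter 2 against 1, and the interaction. The standard error is the log2 fold change over the square root of F. DESeq2 1.42.0 and limma 3.58.1 were alternatives. Ratios used counts plus 0.5 and an exact permutation test within litters. Scripts were tested on simulated data.

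Members, lists and tests were chosen with earlier results of these data known. Genes named were the members, per list those called over both litters and the 2 of largest change, and for *Ezh2* and *Ezh1* the 5 tested genes most highly correlated with it, at a mean log2 CPM of 1 or more. Some genes that this rule names are not reported here. Marker lists covered proliferating cells, neurons, neural progenitors, dorsal root ganglion, mesenchyme, erythroid cells, endothelium, microglia and macrophages, lumbar *Hox* genes, and forebrain and midbrain. A filter by the model matrix was added after seeing the data. Within groups, counts of all 20 pairs of embryos differed beyond sampling noise, with 9.31 to 85.2 chi-square units a gene, and each embryo was 1 replicate. Embryo numbers are not shared between genotypes. Total counts were 40949585 to 68928443 per embryo, so that counting error was small beside the spread between embryos.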

Additional observations from a re-analysis of the deposited data

Results flagged for a closer look

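In the *Dot1l*-cKO group the log2 ratio of *Ring1* to *Rnf2* had a sample far from the others. It was -2.15 in embryo Mut_181-3 of litter 1, with the next highest of the other 4 at -2.42, and the gap was above Dixon's critical value for 5 samples. This embryo also had the highest *Ring1* level of the *Dot1l*-cKO group (32.7 CPM) and its lowest *Rnf2* level (145 CPM). In all, 28 groups of values were examined, and chance flags about 1 in 20.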

How the results depend on the processing

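Over both litters, 2 members were called. The number was 1 with scaling by library size only, 6 without a filter on low counts, 4 with DESeq2, 1 with a GC correction, 0 without the litter, 0 with *Xist* as a covariate, and 0 to 3 when each embryo was left out. Over all genes, edgeR called 602, against 2201 without the filter, 1508 with DESeq2, 384 with the GC correction, 42 with *Xist*, 0 without the litter (1867 at an unadjusted p below 0.05, edgeR) and 48 to 1394 with an embryo left out. Of the calls 62.5% were higher, but 73.6% with library size only and 31.0% with *Xist*. In litter 2 alone, 4 members were called, 2 with DESeq2 size factors and 0 to 3 with an embryo left out, the lone sample then being assumed to vary like the others. Litter 1 and the interaction gave 0 member calls under every alternative run. Some values changed sign. Over both litters these were *Ezh1* (0.061 with *Xist*, -0.10 to 0.0057 leaving out embryos), *Rnf2* (-0.0065 without the litter, -0.024 to 0.032), *Bmi1* (0.0061 with *Xist*), *Epop* (-0.24 with the GC correction), *Kdm6a* (0.029 with *Xist*) and *Sox17* (-0.15 with *Xist*). Between litters they were *Bmi1* (-0.016 with library size only, -0.038 to 0.073) and *Ring1* (-0.042 with library size only, -0.0047 without the filter, -0.0030 with at least 10 counts in every embryo, -0.064 with *Xist*, -0.056 in controls alone, -0.028 to 0.056). The ratio of *Ezh2* to the proliferating-cell list was -0.058 in litter 2 alone, 0.053 with the mean of log2 CPM over the list and 0.036 to 0.15 leaving out embryos (0.097 with all), and that of *Ezh1* to the neuron list 0.053 in litter 1 alone and -0.080 to 0.019 leaving out embryos. The filter by the model matrix, added after seeing the data, gave 2 and 6 member calls for genotype and litter. The cause of these changes was not tested. With *Xist* as a covariate the genotype difference rested mostly on litter 1, since *Xist* was low only in both mutants of litter 2. No paired analysis was possible because embryo numbers are not shared between the genotypes.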
